A study of Homo sapiens with 2 samples.

Results

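The genes described here encode enzymes that add or remove chemical marks on histones and other proteins, in 7 families named by their symbols: lysine demethylases (KDM), histone deacetylases (HDAC), sirtuins (SIRT), SET-domain proteins (SETD), protein arginine methyltransferases (PRMT), lysine acetyltransferases (KAT) and the euchromatic histone methyltransferases (EHMT). Members were taken by symbol alone. The symbol had to be one of these stems followed by a number and, where the family uses one, a letter, which selected 61 of the 51640 symbols in the deposited tables. Each member has a single row. By family there were 16 KDM, 11 HDAC, 10 SETD, 8 PRMT, 7 SIRT, 7 KAT and 2 EHMT genes. Related enzymes under other symbols, such as CARM1, EP300, EZH2 and the MLL genes, were kept as companion lists.

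RNA came from HCT116, an epithelial line established from a human colon cancer, and was measured in 2 libraries of unperturbed cells that the submitters call biological replicates and name PJ and PF. There was no treatment, no altered gene and no second group, and the labels do not say what the letters mean. Expression is given as FPKM, fragments per kilobase of transcript scaled to a library's mapped total, with deposited bounds taken to be 95% bounds. The normal colon data named in the design were not analysed here, so no value says how a gene stands relative to normal tissue.

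Acetyl groups on histone lysines loosen chromatin and are written by acetyltransferases and erased by deacetylases and sirtuins, the sirtuins using NAD as a cofactor. Methyl groups on lysine are read according to position: those on lysine 4 of histone H3 mark active promoters and those on lysine 9 mark silent chromatin. Methylation of lysine 27 marks genes silenced by Polycomb, and methylation of lysine 36 marks transcribed gene bodies. Many of these enzymes also act on proteins other than histones, including metabolic enzymes and splicing factors.

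Facts of the whole data set bear on every value. The epithelial markers EPCAM, KRT8, KRT18, KRT19 and CDH1 all reached 1 FPKM in each library, summing to 896 FPKM in PJ and 1518 FPKM in PF, and 4 of the 5 were lower in PJ. The lowest, CDH1, was at 1.80 FPKM in PJ and 21.9 FPKM in PF. Of the other cell types, 0 of 4 fibroblast, 0 of 3 blood cell and 0 of 2 endothelial markers reached 1 FPKM in both libraries. The fibroblast and endothelial sums were 0.356 and 0.0803 FPKM in PJ and 0.180 and 0.0758 FPKM in PF, and the fibroblast marker LUM was listed at 0 in PJ. Whether these marker differences play a part in any difference below was not tested. Among the 14404 symbols that reached 1 FPKM in each library, the median PJ to PF ratio was 1.19, or 0.25 on the log2 scale. The number of fragments sequenced is not known from FPKM values. From the upper bounds of genes under 200 bp listed at 0, the scaling total was estimated as 1.04 times as large in PF as in PJ. How far that total reflects the depth was not tested. With 1 library on each side no p-value can be given, and fewer cells holding a transcript cannot be told apart from less transcript per cell.

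HCT116 expressed nearly the whole set. Of the 60 members with a value in both libraries, 55 were at 1 FPKM or more in both, or 91.7%, against 57.3% of protein-coding symbols and 27.9% of all symbols. At a threshold of 10 FPKM there were 33 members, or 55.0%, against 31.8% of protein-coding symbols. The median member stood at 14.2 FPKM in PJ and 14.9 FPKM in PF, and the median protein-coding symbol at 3.92 FPKM in PJ and 3.25 FPKM in PF. By mean level 4 members lay above 100 FPKM, 5 between 30 and 100, 28 between 10 and 30, 20 between 1 and 10 and 3 below 1.

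The member without a pair of values is KDM1A (ENSG00000004487.10; hg19 chromosome 1, 23345941 to 23410182), which encodes LSD1, a flavin-dependent demethylase of lysine 4. Its estimate in PF has the status FAIL and is listed at 0, which was treated as missing. In PJ it was at 118 FPKM, above its own upper bound of 114 FPKM and the fourth highest member of that library. KDM1A therefore enters no count that uses both libraries, and its level rests on 1 library.

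The 5 other members below 1 FPKM in at least 1 library were PRMT8, KDM5D, HDAC4, SIRT4 and KDM4D. PRMT8 and KDM5D were the lowest members in both libraries, although the bounds of KDM5D and SIRT4 overlapped in PF. The remaining 3 were above the threshold in 1 library: HDAC4 at 0.956 FPKM in PJ and 2.93 FPKM in PF, SIRT4 at 1.41 FPKM in PJ and 0.232 FPKM in PF, and KDM4D at 2.73 FPKM in PJ and 0.889 FPKM in PF. The deposited bounds describe how well a level was estimated from its own library, not how cultures vary. In 59 of the 60 members the estimate lay within its own deposited bounds in both libraries. The exception was KAT2A, at 31.3 FPKM in PJ against an upper bound of 30.7 FPKM. No member had the status LOWDATA.

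**Figure D1:**
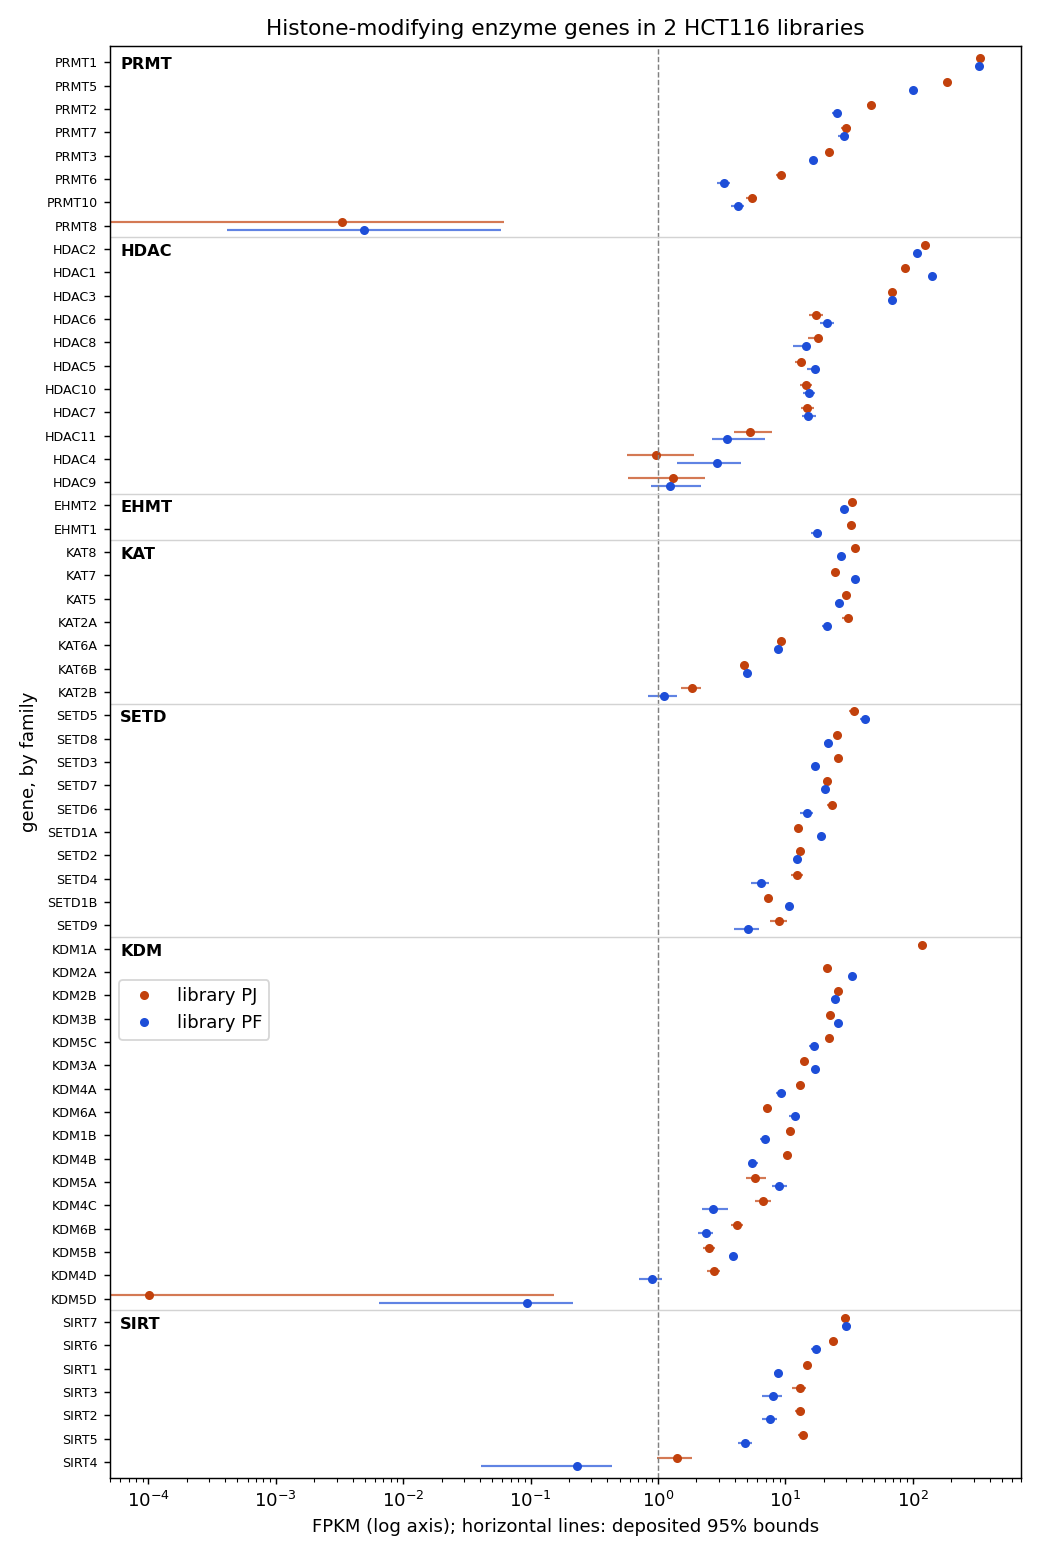
FPKM of each of the 61 members on a log axis in library PJ (orange) and library PF (blue), by family and mean level. Horizontal lines are the deposited bounds, taken to be 95% bounds, and a dashed line marks 1 FPKM. PRMT1 is the highest in both libraries, PRMT8 and KDM5D are the lowest in both, with the PF bounds of KDM5D overlapping those of SIRT4, and KDM1A has a point for PJ only.

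Arginine methyltransferases held the highest gene of the set. PRMT1 (ENSG00000126457.16; hg19 chromosome 19, 50179043 to 50192286), the main enzyme of asymmetric arginine dimethylation, was at 337 FPKM in PJ (bounds 334 to 349) and 332 FPKM in PF (329 to 345). It ranked first of the members in both libraries, its bounds overlapped and its log2 ratio of PJ over PF was 0.02. PRMT1 made up 52.9% of the summed FPKM of its family in PJ and 65.1% in PF.

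PRMT5 (ENSG00000100462.11), which makes symmetric dimethylarginine on histones and splicing proteins, was at 187 FPKM in PJ (182 to 196) and 100.1 FPKM in PF (96.1 to 106). Its bounds were apart, and the level of PRMT1 was 1.80 times that of PRMT5 in PJ and 3.32 times in PF. PRMT2, a type I enzyme known as a nuclear receptor coactivator, was at 47.1 FPKM in PJ and 25.4 FPKM in PF. PRMT7, the type III enzyme that makes monomethylarginine, was at 29.8 FPKM in PJ and 28.6 FPKM in PF, with overlapping bounds.

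PRMT3, a cytosolic enzyme that methylates a ribosomal protein, was at 22.0 FPKM in PJ and 16.4 FPKM in PF. The gene listed as PRMT10, whose current symbol is PRMT9 and which methylates a splicing factor, was at 5.44 FPKM in PJ and 4.24 FPKM in PF. Both were higher in PJ with bounds apart. PRMT6, which methylates arginine 2 of histone H3, was at 9.18 FPKM in PJ (8.50 to 9.87) and 3.30 FPKM in PF (2.93 to 3.67).

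PRMT8, a membrane-anchored paralog of PRMT1 known from neurons, was at 0.00333 FPKM in PJ and 0.00493 FPKM in PF, with upper bounds of 0.0613 and 0.0588 FPKM. Both values are close to 0, so no ratio between the libraries is drawn. The RefSeq sequences before the annotated starts of this closely related pair are shown because their levels lie at opposite ends of the set. They are the 250 bases upstream of the most upstream RefSeq start (GRCh38.p14, plus strand), chr19:49677021-49677270 for PRMT1 and chr12:3381099-3381348 for PRMT8, in lower case, with matches to the GC box (GGGCGG) and the CCAAT box (CCAAT) on either strand in capitals.
PRMT1: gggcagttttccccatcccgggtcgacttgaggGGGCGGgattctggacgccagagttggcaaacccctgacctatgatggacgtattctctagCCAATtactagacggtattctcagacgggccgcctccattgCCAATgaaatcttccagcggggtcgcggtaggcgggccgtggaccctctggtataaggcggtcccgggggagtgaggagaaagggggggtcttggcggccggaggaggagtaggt
PRMT8: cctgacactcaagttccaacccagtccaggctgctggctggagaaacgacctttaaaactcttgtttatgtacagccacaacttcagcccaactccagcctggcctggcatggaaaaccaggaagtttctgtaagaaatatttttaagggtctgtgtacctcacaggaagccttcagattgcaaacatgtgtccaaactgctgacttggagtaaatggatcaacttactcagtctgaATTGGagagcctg
The PRMT1 window holds 17 CpG dinucleotides, a GC content of 61.2%, 1 GC box and 2 CCAAT boxes. The PRMT8 window holds 1 CpG, a GC content of 46.4% and 1 CCAAT box on the opposite strand. Among these most upstream windows, that of PRMT8 had the fewest CpG of the 56 members with a listed promoter. Those are all members but HDAC5, KAT6A, KAT8, SETD1B and SIRT7. RefSeq lists 2 starts for PRMT8 and 1 for PRMT1, and the window of the other PRMT8 start was not examined. These are descriptions of the reference sequence, since neither methylation nor factor binding was measured.

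The same windows were searched across the set. The 56 members had a median GC content of 65.6% and a median of 22.5 CpG, against 62% and 17 CpG for 1 start from each of 15843 protein-coding genes. A GC box occurred in 35 of 56 members, or 62.5%, against 55.8% of protein-coding promoters and 42.6% of all 35116 listed promoters. A CCAAT box occurred in 18, or 32.1%, against 34.5% of protein-coding and 32.0% of all promoters. The TATA box (TATAAA) occurred in 0 of 56 members, against 9.35% of protein-coding and 10.7% of all promoters. The E-box CACGTG, in EHMT2, HDAC4, KAT5, KDM4B, KDM4C, KDM6A, PRMT3, SETD6 and SIRT1, was found in 16.1%, against 7.80% and 6.34%. An ETS motif (CCGGAAG) was found in 11 members, or 19.6%, against 11.8% and 8.52%. All motifs were counted on both strands, with overlaps between motifs allowed. For 33 of the 56 members the bases just after the window were found at the beginning of a GENCODE transcript, and the others were kept in these shares. The shares are descriptions, and no test was made of them.

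Deacetylases of class I were the next highest. HDAC2 was at 125 FPKM in PJ (122 to 131) and 108 FPKM in PF (103 to 113), a log2 ratio of 0.22. HDAC1 (ENSG00000116478.7; hg19 chromosome 1, 32757687 to 32799236) had the reverse order, at 86.1 FPKM in PJ (83.9 to 88.3) and 141 FPKM in PF (138 to 144). HDAC1 and HDAC2 encode near-interchangeable catalytic subunits of the SIN3, NuRD and CoREST corepressors, and the bounds of each were apart between libraries. The HDAC1 to HDAC2 ratio was 0.687 in PJ and 1.31 in PF, so the pair changed order.

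HDAC3, the catalytic subunit of the NCOR1 corepressor, was at 69.2 FPKM in PJ and 68.6 FPKM in PF. HDAC8, which deacetylates the cohesin subunit SMC3, was at 18.1 FPKM in PJ and 14.4 FPKM in PF. For HDAC3 and HDAC8 the bounds overlapped. The 4 class I genes summed to 299 FPKM in PJ and 332 FPKM in PF.

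Class II and class IV genes were lower than HDAC1, HDAC2 and HDAC3, though HDAC6 was above the class I gene HDAC8 in PF. HDAC6, a cytoplasmic tubulin deacetylase, was at 17.3 FPKM in PJ and 21.4 FPKM in PF, and HDAC10, a polyamine deacetylase, at 14.5 FPKM in PJ and 15.4 FPKM in PF. Of the class IIa genes, whose products shuttle between nucleus and cytoplasm in response to signals, HDAC7 was at 14.7 FPKM in PJ and 15.1 FPKM in PF and HDAC5 at 13.1 FPKM in PJ and 17.1 FPKM in PF. Only HDAC5 of these 4 had bounds apart.

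HDAC11, the single class IV gene, was at 5.26 FPKM in PJ and 3.49 FPKM in PF. HDAC9, another class IIa gene, was at 1.31 FPKM in PJ and 1.24 FPKM in PF. HDAC4 (ENSG00000068024.12; hg19 chromosome 2, 239969864 to 240323348), of class IIa as well, had bounds of 0.576 to 1.93 FPKM in PJ and 1.40 to 4.51 FPKM in PF. The bounds overlapped for all 3 of these genes. The lowest members of the family were thus both of class IIa, and the class summed to 30.1 FPKM in PJ and 36.4 FPKM in PF.

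Sirtuin genes were expressed at moderate levels, and 6 of the 7 were higher in PJ. Among the nuclear sirtuins, SIRT7, which is nucleolar, was at 29.6 FPKM in PJ (27.5 to 31.9) and 30.2 FPKM in PF (27.7 to 32.6), a log2 ratio of -0.03. SIRT6, which acts on telomeric chromatin and in DNA repair, was at 23.7 FPKM in PJ and 17.5 FPKM in PF, and SIRT1, a deacetylase of p53, was at 14.7 FPKM in PJ and 8.81 FPKM in PF. The bounds overlapped for SIRT7 alone of these 3.

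SIRT2, a mainly cytoplasmic tubulin deacetylase, was at 12.9 FPKM in PJ and 7.58 FPKM in PF. The main mitochondrial deacetylase gene SIRT3 was also at 12.9 FPKM in PJ and was at 8.02 FPKM in PF. SIRT5 (ENSG00000124523.9; hg19 chromosome 6, 13574826 to 13612524), a mitochondrial enzyme that removes succinyl and related acyl groups, was at 13.6 FPKM in PJ (12.5 to 14.8) and 4.83 FPKM in PF (4.24 to 5.42). SIRT4, the third mitochondrial sirtuin, was the lowest in each library. The bounds of SIRT2, SIRT3, SIRT4 and SIRT5 were all apart, and the mitochondrial sirtuins summed to 28.0 FPKM in PJ and 13.1 FPKM in PF.

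The acetyltransferase genes were each at 1 FPKM or more in both libraries, from KAT8 down to KAT2B. KAT8, which acetylates lysine 16 of histone H4, was at 35.4 FPKM in PJ (33.8 to 37.0) and 27.3 FPKM in PF (25.8 to 28.9), a log2 ratio of 0.36. KAT7, the enzyme HBO1 associated with replication origins, had the reverse order, at 24.4 FPKM in PJ and 35.3 FPKM in PF. KAT5, the enzyme TIP60 of DNA repair, was at 29.9 FPKM in PJ and 26.4 FPKM in PF. Bounds were apart for KAT8 and KAT7 and overlapped for KAT5.

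KAT6A and KAT6B, paralogs that acetylate histone H3, were at 9.16 and 4.77 FPKM in PJ and 8.80 and 4.98 FPKM in PF, a KAT6A to KAT6B ratio of 1.92 in PJ and 1.77 in PF. KAT2A and KAT2B, which encode GCN5 and PCAF, the exchangeable acetyltransferases of the SAGA coactivator, differed far more. KAT2A was at 21.3 FPKM in PF beside its PJ value above, and KAT2B was at 1.85 FPKM in PJ and 1.12 FPKM in PF. The KAT2A to KAT2B ratio was 16.9 in PJ and 18.9 in PF.

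The EHMT genes encode GLP and G9a, partners that write monomethyl and dimethyl marks on lysine 9 of H3. EHMT2 was at 33.1 FPKM in PJ (32.0 to 34.2) and 28.96 FPKM in PF (27.5 to 29.9), a log2 ratio of 0.19. EHMT1 was at 32.8 FPKM in PJ (30.2 to 35.3) and 17.6 FPKM in PF (15.8 to 19.5). Bounds were apart for both. The pair was level in PJ, with an EHMT1 to EHMT2 ratio of 0.991, and at 0.608 in PF.

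The SETD genes also passed the threshold without exception, 10 of 10. SETD5, a chromatin protein gene linked to intellectual disability, was the highest, at 34.4 FPKM in PJ (31.6 to 37.7) and 42.3 FPKM in PF (38.8 to 46.2), a log2 ratio of -0.29. SETD8, whose current symbol is KMT5A and which monomethylates lysine 20 of histone H4 in the cell cycle, was at 25.6 FPKM in PJ and 21.5 FPKM in PF. SETD3, an actin histidine methyltransferase gene, was at 25.8 FPKM in PJ and 17.2 FPKM in PF. Bounds were apart for all 3, with SETD5 lower and the other pair higher in PJ.

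SETD7, which methylates lysine 4 of H3 and several transcription factors, was at 21.1 FPKM in PJ and 20.4 FPKM in PF. SETD6, which methylates the NF-kappaB subunit RELA, was at 23.1 FPKM in PJ and 14.7 FPKM in PF. SETD2, the enzyme that trimethylates lysine 36, was at 13.1 FPKM in PJ and 12.4 FPKM in PF. Only SETD6 of these had bounds apart.

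SETD1A and SETD1B, the catalytic subunits of the SET1 complexes that trimethylate lysine 4, were both lower in PJ. SETD1A was at 12.4 FPKM in PJ and 19.1 FPKM in PF, and SETD1B at 7.35 FPKM in PJ and 10.6 FPKM in PF. Their ratio to each other was similar in the libraries, 1.69 in PJ and 1.80 in PF. SETD4 was at 12.3 FPKM in PJ and 6.38 FPKM in PF, and SETD9, the lowest of the family by mean, at 8.98 FPKM in PJ and 5.07 FPKM in PF. All 4 had bounds apart.

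Demethylase genes had the lowest family level over both libraries and in PJ, and sirtuin genes in PF. The median member's mean log2(FPKM + 1) was 3.27 for KDM, 3.49 for SIRT, 4 for HDAC, 4.16 for SETD, 4.62 for PRMT, 4.75 for KAT and 4.82 for EHMT genes, and 2.21 for protein-coding symbols. Among demethylases of lysine 36, KDM2A was at 21.2 FPKM in PJ (20.3 to 22.1) and 33.1 FPKM in PF (31.9 to 34.3), a log2 ratio of -0.62. KDM2B, which also brings Polycomb complexes to CpG islands, was at 25.7 FPKM in PJ and 24.4 FPKM in PF. KDM2A bounds were apart and those of KDM2B overlapped. Among demethylases of lysine 9, KDM3B was at 22.2 FPKM in PJ and 26.1 FPKM in PF and KDM3A, a hypoxia-induced gene, at 13.96 FPKM in PJ and 17.1 FPKM in PF. Both were lower in PJ with bounds apart.

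The KDM4 genes, which act on lysine 9 and for most members also lysine 36, were all higher in PJ with bounds apart. KDM4A was at 13.0 FPKM in PJ and 9.26 FPKM in PF, KDM4B at 10.2 FPKM in PJ and 5.49 FPKM in PF, and KDM4C (ENSG00000107077.12; hg19 chromosome 9, 6720863 to 7175648) at 6.67 FPKM in PJ (5.77 to 7.67) and 2.72 FPKM in PF (2.22 to 3.54). With KDM4D they summed to 32.6 FPKM in PJ and 18.4 FPKM in PF. The span of KDM4C contains the processed pseudogenes SNRPEP2, at 101 FPKM in PJ and 72.4 FPKM in PF, and RP11-390F4.8, at 3.39 FPKM in PJ and 1.23 FPKM in PF. How fragments at these pseudogenes were assigned was not tested.

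Of the demethylases of lysine 4, KDM5C, mutated in X-linked intellectual disability, was the highest with values in both libraries, at 22.1 FPKM in PJ and 16.9 FPKM in PF. KDM1B, a paralog of KDM1A, was at 10.8 FPKM in PJ and 6.88 FPKM in PF. KDM5A, first known as a partner of the retinoblastoma protein, was at 5.81 FPKM in PJ and 8.93 FPKM in PF, and KDM5B, often overexpressed in breast cancer, at 2.53 FPKM in PJ and 3.87 FPKM in PF. KDM5C and KDM1B were higher and KDM5A and KDM5B lower in PJ, each with bounds apart. KDM5D was at 0.000102 FPKM in PJ and 0.0941 FPKM in PF, with upper bounds of 0.152 and 0.215 FPKM that overlap.

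KDM6A and KDM6B remove methyl groups from lysine 27 and encode UTX and JMJD3. KDM6A was at 7.21 FPKM in PJ and 11.8 FPKM in PF, and KDM6B at 4.18 FPKM in PJ and 2.38 FPKM in PF. The libraries differed in opposite directions for the pair, both with bounds apart. The KDM6A to KDM6B ratio was 1.72 in PJ and 4.95 in PF.

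**Figure D2:**
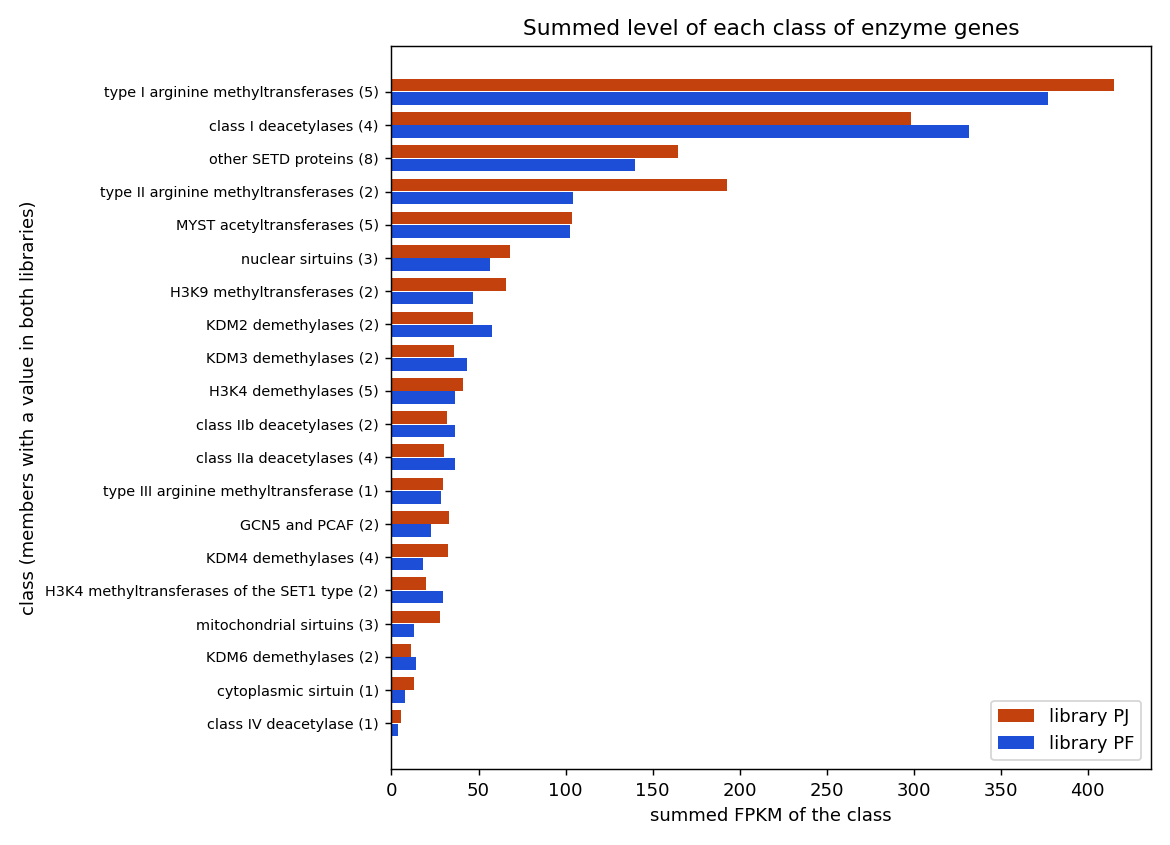
Summed FPKM of each functional class in library PJ (orange) and library PF (blue), with the number of members that have a value in both libraries in brackets, so KDM1A is left out. Type I arginine methyltransferases and class I deacetylases have the highest sums in both libraries, and the bars carry no error since each is 1 library.

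Differences between the libraries were counted for the 57 members whose mean reached 1 FPKM, as log2 ratios of PJ over PF after adding 1 to each FPKM, which understates changes of low genes. At least 2-fold higher in PJ were 3 members, or 5.26%, against 10.7% of protein-coding symbols and 10.4% of all symbols. At least 2-fold lower was 1 member, or 1.75%, against 4.38% of protein-coding and 5.22% of all symbols. The largest log2 ratio was that of SIRT5, 1.33, followed by PRMT6 (ENSG00000198890.5; hg19 chromosome 1, 107599267 to 107601916) at 1.24 and KDM4C at 1.05. HDAC4 had the lowest, -1.01. The bounds were apart for the first 3 and overlapped for HDAC4. KDM4D, at 0.98, and HDAC1, at -0.70, came next on each side without reaching 2-fold on this scale. Without the added 1, KDM4D was 3.07 times as high in PJ as in PF, with bounds apart, and HDAC4 0.326 times as high. SIRT4 was not counted because its mean was 0.824 FPKM. It was 6.09 times as high in PJ without the added 1, with bounds apart, from 0.232 FPKM in PF. KDM4C was below 2-fold with the median ratio divided out, at 0.83.

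The promoter windows of SIRT5 and PRMT6 are shown because these genes had the largest ratios of FPKM + 1 with PJ higher (GRCh38.p14, plus strand, 250 bases before the most upstream RefSeq start, chr6:13574279-13574528 and chr1:107056424-107056673). Capitals mark the GC box, here on the opposite strand.
SIRT5: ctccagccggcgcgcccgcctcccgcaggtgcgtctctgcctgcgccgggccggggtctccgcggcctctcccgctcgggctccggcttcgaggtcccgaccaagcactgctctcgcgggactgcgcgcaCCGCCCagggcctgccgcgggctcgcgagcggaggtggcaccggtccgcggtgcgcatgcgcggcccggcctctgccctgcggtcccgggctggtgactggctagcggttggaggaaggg
PRMT6: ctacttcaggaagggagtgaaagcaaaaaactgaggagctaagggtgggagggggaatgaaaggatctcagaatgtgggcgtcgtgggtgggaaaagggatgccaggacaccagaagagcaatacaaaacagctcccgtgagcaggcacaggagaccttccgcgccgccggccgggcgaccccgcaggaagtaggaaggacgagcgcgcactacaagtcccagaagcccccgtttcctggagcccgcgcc
The SIRT5 window holds 36 CpG and 1 GC box. The PRMT6 window holds 16 CpG and no match to any of the 5 motifs searched. PRMT6 was among the members for which the bases just after the window were not found at the beginning of a GENCODE transcript. Those after the SIRT5 window were found, though RefSeq lists 2 starts for SIRT5 and only the most upstream was examined. Nothing about the factors that bind there follows from these letters.

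Smaller differences were common. Bounds were apart with PJ higher in 28 of the 57 members, or 49.1%, and with PJ lower in 12, or 21.1%, close to the 50.6% and 20.7% of protein-coding symbols. The log2 ratio was above 0 in 39 members, or 68.4%, against 66.6% of protein-coding symbols. After the median ratio of 1.19 was divided out it was above 0 in 28, or 49.1%, against 51.7%. The median log2 ratio of the members was 0.22 as deposited and -0.03 after that division, and for protein-coding symbols 0.24 and 0.02. On direction and on bounds, then, the members' shares lay close to those of protein-coding symbols. Across the 60 members log2(FPKM + 1) correlated between libraries with Pearson's r = 0.949 and FPKM with Spearman's rho = 0.928, a correlation across genes, which are not replicates.

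The families split as follows. All 7 PRMT genes whose mean reached 1 FPKM were higher in PJ, with a median log2 ratio of 0.40, and 5 of 6 sirtuins, with a median of 0.65. HDAC genes were split, 5 higher and 6 lower, with a median of -0.04. The SETD genes had 7 higher and 3 lower (median 0.16), KDM genes 8 and 6 (0.22), KAT genes 5 and 2 (0.17) and both EHMT genes were higher (0.52). With the median ratio divided out, 5 of 7 PRMT genes, 5 of 6 sirtuins and 2 of 11 HDAC genes were higher in PJ. The 11 members that changed sign were PRMT1, PRMT7, HDAC2, HDAC3, HDAC9, EHMT2, KAT5, KAT6A, KDM2B, SETD2 and SETD7, with values from -0.23 to -0.03. No test of a difference between families was made.

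**Figure D3:**
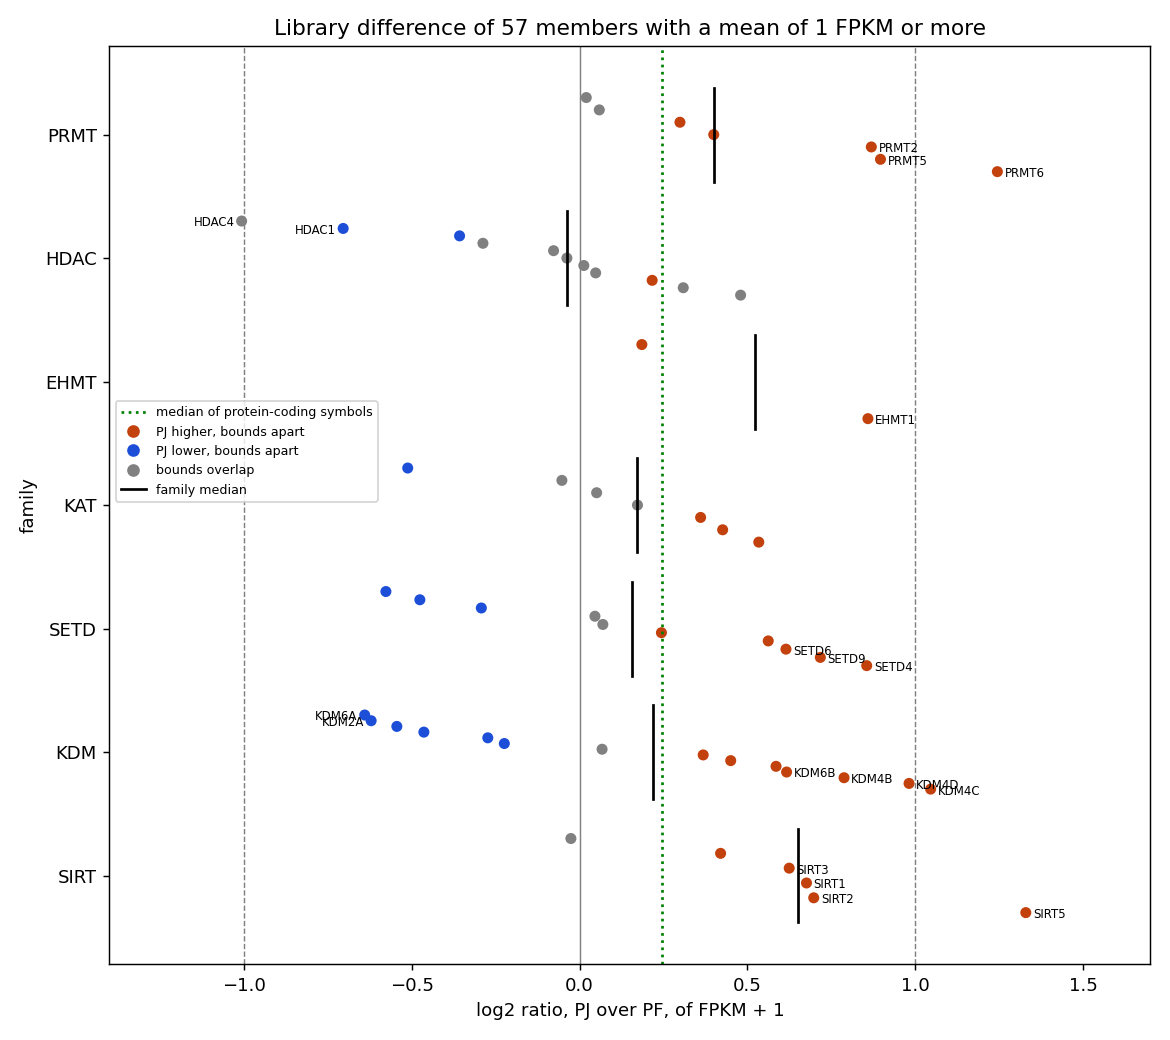
Log2 ratio of FPKM + 1, PJ over PF, for the 57 members whose mean reached 1 FPKM, by family, coloured by whether the deposited bounds are apart, with black bars at family medians. The median of protein-coding symbols (0.24, green dots) lies to the right of the HDAC median (-0.04) and to the left of the PRMT (0.40) and SIRT (0.65) medians, and dashed lines mark 2-fold.

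Transcript length moved with these ratios. Among the 57 members the log2 ratio was lower at greater length of the longest annotated transcript, with Pearson's r = -0.432 against log2 length and Spearman's rho = -0.441; the points share the same 2 libraries. Across 11476 protein-coding symbols the same values were -0.134 and -0.168. Of the 29 members up to 4655 bases long 26 were higher in PJ, with a median log2 ratio of 0.48, and of the 28 longer ones 13 were higher, with a median of -0.05. In protein-coding symbols split at the same length, 70.9% of the shorter were higher in PJ (median 0.31) and 58.2% of the longer (median 0.12). The sirtuin and PRMT genes have median transcripts of 3445 and 3780 bases, and the HDAC and KDM genes of 5326 and 6096 bases. With the median ratio of all symbols in each of 10 length bins subtracted, a setting added once the length relation was known, 5 of 6 sirtuins, 5 of 7 PRMT and 4 of 11 HDAC genes were above 0. The part of length in the family differences was not tested further.

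**Figure D4:**
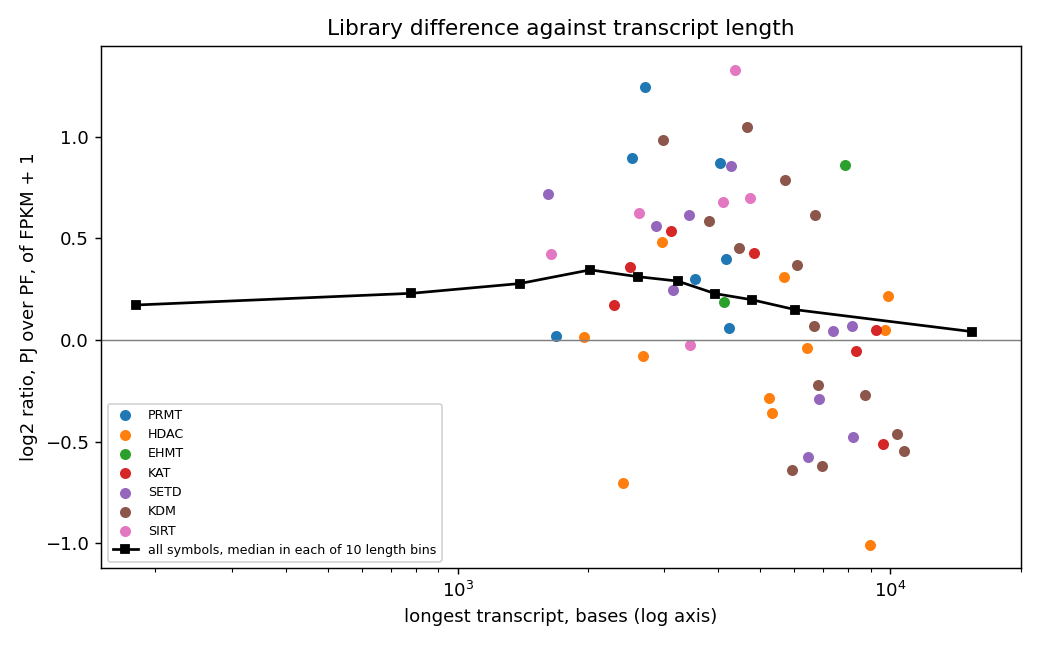
Log2 ratio of FPKM + 1, PJ over PF, against the longest transcript in bases (log axis) for the 57 members, coloured by family, with black squares for the median of all symbols in each of 10 length bins. Most of the 29 shorter members (26) and 13 of the 28 longer ones lie above 0, with wide scatter, while the medians of all symbols go from a highest value of 0.34 to 0.04 in the longest bin.

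The companion lists place these enzymes among their partners. The 125 measured companion genes passed the threshold in 119 cases, or 95.2%, against 57.3% of protein-coding symbols. Of the 120 whose mean reached 1 FPKM, 7 were higher in PJ by at least 2-fold and 1 was lower, or 5.83% and 0.833%, against 10.7% and 4.38% of protein-coding symbols. In the list of lysine 4 methyltransferases and their subunits, 11 of 11 passed, led by DPY30, a shared core subunit, at 106 FPKM in PJ and 59.5 FPKM in PF, with MLL3 lowest at 4.66 FPKM in PJ and 7.49 FPKM in PF. Together with SETD1A and SETD1B, all 7 genes grouped here as enzymes (MLL, MLL2, MLL3, MLL5 and ASH1L besides) were lower in PJ. Their log2 ratios ran from -0.59 to -0.12, and the bounds overlapped for MLL, which was at -0.12. SETD7, described above as methylating lysine 4, was not put in this group and was at 0.05, with overlapping bounds. Whether MLL5 and ASH1L act on lysine 4 or work with these subunits was not assessed. All 6 subunit genes (WDR5, RBBP5, ASH2L, DPY30, CXXC1 and MEN1) were higher, from 0.47 to 1.21. Of protein-coding symbols split at 4655 bases, 58.2% of the longer and 70.9% of the shorter were higher in PJ. Enzyme transcripts are 6451 to 19419 bases long and subunit transcripts 1519 to 4404 bases, so length and role cannot be told apart here. MEN1, the menin gene, was the member of this list at least 2-fold apart, at 59.1 FPKM in PJ and 25.04 FPKM in PF. The grouping into enzymes and subunits was chosen after the values were seen.

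Other lysine methyltransferases passed in 17 of 20 cases, from WHSC1, which writes the lysine 36 mark, at 57.3 FPKM in PJ and 60.3 FPKM in PF, to the germ-line gene PRDM9, at 8.94e-05 FPKM in PJ and 0.000976 FPKM in PF. SMYD4 (6.52 FPKM in PJ and 1.49 FPKM in PF) and the lysine 9 methyltransferase gene SUV39H2 (23.2 FPKM in PJ and 10.8 FPKM in PF) exceeded 2-fold with PJ higher, and 0 genes did so with PJ lower. Other JmjC genes passed in 9 of 12 cases and held the largest differences among the companions in both directions. JMJD6, a lysyl hydroxylase gene, was at 55.5 FPKM in PJ and 10.8 FPKM in PF, and MINA, a ribosomal oxygenase gene, at 46.2 FPKM in PJ and 16.3 FPKM in PF. JMJD1C had the reverse order, at 8.87 FPKM in PJ and 29.5 FPKM in PF. All 3 had bounds apart, and KDM4E, the lowest, was listed at 0 in both.

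Other acetyltransferases passed in 12 of 12 cases and none was 2-fold apart on the scale of FPKM + 1. HAT1, which acetylates newly made histone H4, led at 90.4 FPKM in PJ and 74.8 FPKM in PF, and NCOA1 was lowest at 4.85 FPKM in PJ and 4.53 FPKM in PF. The paralogous coactivators EP300 and CREBBP were both lower in PJ, at 10.3 and 14.4 FPKM against 18.8 and 24.2 FPKM in PF. Subunits of the acetyltransferase complexes passed in 38 of 38 cases, from ENY2 of SAGA, at 213 FPKM in PJ and 139 FPKM in PF, to ING4, at 4.94 FPKM in PJ and 3.20 FPKM in PF. PHF17 (25.7 FPKM in PJ and 9.61 FPKM in PF) and MEAF6 (45.7 FPKM in PJ and 21.6 FPKM in PF), both subunits of MYST complexes, exceeded 2-fold with PJ higher.

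Corepressor subunits that carry HDAC1, HDAC2 and HDAC3 passed in 26 of 26 cases with 0 at least 2-fold apart on the scale of FPKM + 1. ARID4A came nearest, at a log2 ratio of -0.99. SAP18, the highest by mean, was at 133 FPKM in PJ and 114 FPKM in PF, and ARID4A, the lowest, at 2.23 FPKM in PJ and 5.40 FPKM in PF. NCOR1, a scaffold that activates HDAC3, was lower in PJ, at 8.02 FPKM in PJ and 13.0 FPKM in PF, with bounds apart, whereas the bounds of HDAC3 overlapped. Arginine methylation partners passed in 6 of 6 cases. CLNS1A and WDR77, which bind PRMT5, were at 96.8 and 49.8 FPKM in PJ and at 72.2 and 34.5 FPKM in PF. TDRD3, a reader of methylarginine, was the lowest at 2.87 FPKM in PJ and 4.13 FPKM in PF. Of the companions given here with values, WDR77 and CREBBP had an estimate outside its own deposited bounds in at least 1 library, as had JMJD1C.

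Shared sequence limits some values. In the deposited coordinates 38 of the 61 members overlap another gene of at least 200 bp, and for 16 such a gene reached 1 FPKM in each library, 12 of them on the opposite strand. SIRT3 overlaps PSMD13, a proteasome gene at 219 FPKM in PJ and 178 FPKM in PF, and SETD6 overlaps CNOT1, at 77.0 FPKM in PJ and 90.9 FPKM in PF. Both neighbours stood above the member in each library. Whether counting used strand is not given in the sources used here, so reads from such partners may not be told apart. RefSeq also lists 11 pseudogene copies of 8 members, among them HDAC1, PRMT1 and PRMT5, and how reads shared with those copies were assigned is not known.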

How the data were processed

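RNA of 2 HCT116 libraries, PJ and PF, was analysed from 1 deposited table each. The authors deposited FPKM per gene with lower and upper confidence bounds and a status, per the file headers. The bounds were taken to be 95% bounds, a level that the column names do not state. TopHat2 2.0.8b, TopHat and Cufflinks with hg19 are listed per the submitters' processing notes. Not given in the sources used here are the Cufflinks version, the annotation and the strand setting.

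Status FAIL was treated as missing. FPKM of rows sharing a symbol were summed. The threshold for expression was 1 FPKM, reached in each library. Ratios are log2 of (PJ + 1)/(PF + 1), for means of 1 FPKM or more. With 1 library a side, no test was made. Alternatives changed the threshold, pseudocount, fold, scaling and low-value filter. Fold counts were checked on simulated data. Gene type and transcript length came from GENCODE release 29 (GRCh38) by gene identifier, and promoters from RefSeq (GRCh38.p14), matched by symbol for 56 members. Member coordinates are hg19, counted from 1.

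Members and lists were chosen with earlier results of these data known. The text gives every member, the bounds of the highest of each family and of those 2-fold apart, and each list's highest, lowest and 2-fold genes. Genes named beyond that (EP300, CREBBP, NCOR1, WDR77, the overlapping genes) were picked with their values in view. Companion lists count symbols present in the tables, and 11 listed ones matched no row. Some listed genes are not reported here. Computation used scipy 1.17.1, pandas 2.3.3 and numpy 2.4.6 under Python 3.11.15.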

Additional observations from a re-analysis of the deposited data

How the results depend on the processing

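Replication limits these values: each side of a ratio is 1 library, and the bounds overlapped for 19 of 60 members. The expressed count of 55 became 33 at 10 FPKM, was 45 to 57 under the other thresholds and scalings, and was 56 to 58 in single libraries. The median log2 ratio of 0.22 changed sign to -0.0289 with the median ratio divided out, was 0.0201 with the libraries rescaled to equal sums over nuclear genes of at least 200 bp and 0.0101 with length medians subtracted.

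The 3 members at least 2-fold higher became 16 at 1.5-fold and 1, SIRT5, with length medians subtracted, where PRMT6 was at 0.93 and KDM4C at 0.85. KDM4C also lost its call with the median ratio divided out (0.83), under the rescaling (0.94), where SIRT4 gained one, and with a mean of at least 5 FPKM required. KDM4D gained a call with a pseudocount of 0.1, where HDAC4 was at -1.52, farther from 0 than SIRT5 at 1.48. The 1 lower became 4 at 1.5-fold, 0 with a mean of at least 5 FPKM, 0 where bounds had to be apart and 2, HDAC1 and HDAC4, with length medians subtracted. The length setting was added with the data in view.

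Family levels under that rescaling were 3.90 for KDM, 4.66 for HDAC, 4.12 for SIRT, 4.82 for SETD, 5.29 for PRMT, 5.41 for KAT and 5.49 for EHMT. With a pseudocount of 0.1 they were 3.13 for KDM, 3.92 for HDAC and 4.08 for SETD, and those of the others moved by less than 1 SD between the libraries. In single libraries they ran from 3.31 to 3.49 for KDM, 3.97 to 4.03 for HDAC, 3.17 to 3.87 for SIRT, 4.08 to 4.14 for SETD, 4.42 to 4.74 for PRMT, 4.48 to 4.67 for KAT and 4.56 to 5.08 for EHMT. No paired analysis was possible because both libraries belong to 1 group.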
